A study of Danio rerio with 12 samples.

Results

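The genes described here make haemoglobin or mark the red cell: the adult alpha globins hbaa1 and hbaa2, the adult beta globins hbba1 and hbba2, alas2, slc4a1a and cahz. They were chosen by symbol, ignoring case, as a measure of how much red cell RNA each liver library held. The 7 symbols led to 13 of the 32520 gene identifiers in the tables, and 8 of these 13 had enough counts to be tested, among 14509 tested genes in all. hbaa1 (ENSDARG00000097011), hbaa2 (ENSDARG00000069735), alas2 (ENSDARG00000038643) and cahz (ENSDARG00000011166) each matched a single identifier. hbba1 and hbba2 could not be separated by name, because the name table gives the human-style symbol HBE1 to 7 zebrafish beta globin identifiers, and 4 of the larval beta globins have no symbol of their own there. All 7 were therefore kept, and each is named by its identifier. slc4a1a appears as SLC4A1, a symbol carried by 2 identifiers.

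RNA came from whole livers of adult zebrafish of the Tg(fli1:EGFP) line, whose fli1 promoter drives a green fluorescent protein in endothelial cells. The series compared 6 wild-type libraries (glo2+/+) with 6 libraries from fish homozygous for a CRISPR knockout of glyoxalase 2 (glo2-/-, the mutant), and all 12 are labelled as not trained. Glyoxalase 2 hydrolyses S-lactoylglutathione, the last step in the clearance of methylglyoxal, and is known from human red cells among other cells. Sex is not labelled, nor is it stated that libraries are from different fish. The p-values therefore measure the spread between these libraries, and part of it may be technical.

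Haemoglobin is a tetramer of alpha and beta chains, each holding a haem group. Fish red cells keep their nucleus and circulate with globin mRNA, so any blood left in a dissected organ adds globin transcripts to its RNA. alas2 encodes the red cell form of 5-aminolevulinate synthase, the first enzyme of haem synthesis, whereas its relative ALAS1 serves other tissues such as the liver. slc4a1a encodes band 3, the anion exchanger that anchors the membrane skeleton, and cahz encodes a carbonic anhydrase of zebrafish red cells.

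The libraries held 17433960 to 18465485 estimated counts each. Levels below are in CPM, that is counts per 1000000 of a library's total after TMM scaling. HAGH (ENSDARG00000025338), the gene of glyoxalase 2, had a mean of 94.8 CPM (SD 5.40) in wild-type liver and of 81.5 CPM (SD 4.47) in mutant liver, over 6 libraries each. The log2 fold change from the fit was -0.22, with an SE of 0.09 and an edgeR adjusted p of 0.819. The HAGH levels of the genotypes did not overlap, at 91.6 to 105 CPM in glo2+/+ and 76.1 to 88.1 CPM in glo2-/- liver. Of all tested genes, 0.248% had no overlap. What the allele removes is not stated in the labels. The tissue label was met by the hepatocyte markers, of which 18 of 18 were tested and which summed to 263628 to 365258 TPM in each library (transcript abundance per length, scaled to the same total). Exocrine pancreas markers differed widely between libraries, from 28.3 to 3213 TPM in glo2+/+ and from 53.6 to 7840 TPM in glo2-/- liver, and were highest in glo2-/- replicates 1 and 5 and glo2+/+ replicate 6.

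Adult globin RNA was a small and variable share of every liver. The alpha globins hbaa1 and hbaa2 and the 7 beta identifiers together made up 0.0166% to 0.0829% of the counts of a library. In TPM, which are per length, their sum was lowest at 387, with a median of 803 and a maximum of 1787, in glo2+/+ liver. In glo2-/- liver the lowest sum was 423, the median 755 and the highest 1207. The ranges overlapped, and the library with the most globin (glo2+/+ replicate 2) held 4.61 times as much as the one with the least (glo2+/+ replicate 1). The mean was 872 ± 510 TPM for wild-type and 759 ± 290 TPM for mutant liver (SD, n = 6 each). On the log2 scale glo2-/- was lower by a mean of -0.10, against a pooled SD between libraries of 0.70. The direction turned, to 0.14, without glo2+/+ replicate 2, and ran from -0.30 to 0.14 over libraries left out in turn. It was 0.13 without the 3 libraries highest in pancreas markers. These sums leave out another alpha copy, si:ch211-5k11.8, described below. With it, globin made up 0.0222% to 0.126% of the counts of a library. The sum then ran from 515 TPM in glo2+/+ replicate 1 to 2708 TPM in glo2+/+ replicate 2, a 5.25-fold span. In RNA from whole tissue, fewer red cells and less globin RNA per red cell cannot be told apart.

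Ordered by level per length, a single beta identifier, HBE1 (ENSDARG00000089087), led with a median of 296 TPM over the 12 libraries (165 to 883). It was followed by hbaa1 with a median of 237 TPM (84.9 to 388) and HBE1 (ENSDARG00000097238) with 121 TPM (28.0 to 405). Another alpha globin copy that was not among the chosen genes, si:ch211-5k11.8 (ENSDARG00000079078; hbaa1.2 is its RefSeq synonym), lay between the leading pair at 253 TPM (57.5 to 921). These 4 were not in a fixed order: within them, each exceeded the next in only 7 or 8 of 12 libraries. Below them the order was stable. HBE1 (ENSDARG00000069734) had a median of 32.05 TPM, hbaa2 14.9 TPM, alas2 10.03 TPM, cahz 3.91 TPM and SLC4A1 (ENSDARG00000012881) 1.89 TPM, and each exceeded the next in 11 or 12 of 12 libraries. The globin mRNAs thus stood above those for the haem enzyme, the carbonic anhydrase and the anion exchanger in median level.

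The other 5 identifiers were near or at 0. HBE1 (ENSDARG00000045143) had 0 to 4 counts per library, and the remaining SLC4A1 copy (ENSDARG00000024560) had 0 to 2. HBE1 identifiers ENSDARG00000087390, ENSDARG00000113599 and ENSDARG00000115405 were listed at 0 in all 12 libraries. A further 7 identifiers listed as embryonic or larval globins summed to 1.77 to 6.57 TPM per library. They do not include hbbe1.1, hbbe1.2, hbbe1.3 and hbbe2, which matched no symbol of their own, so the level of all larval forms is not known from them. Among the 7, hbae4 was the only tested gene. Its level was 1.77 ± 1.06 CPM in wild-type and 1.94 ± 0.969 CPM in mutant liver (SD over 6 libraries; log2 fold change 0.14, SE 0.44). Which HBE1 identifiers are hbba1, hbba2 or larval genes is not given by the tables used here. In the RefSeq gene order of assembly GRCz12tu, hbaa2, hbba2, ba1l, hbaa1, hbba1 and si:ch211-5k11.8 follow each other, with the larval copies after them.

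None of the 8 tested identifiers differed between the genotypes past the threshold of an edgeR quasi-likelihood adjusted p of 0.05, a threshold that 0.00689% of all tested genes passed (1 of 14509). None had an unadjusted p under 0.05 either, against 5.88% of all tested genes (2.47% higher and 3.41% lower in glo2-/- liver), and in all 8 the CPM of the genotypes overlapped, as in all but 0.248% of tested genes. DESeq2, which called 0.193% of its genes, called none of the 8. The fitted log2 fold change was negative for 7 of 8, with a median of -0.22, where 52.4% of all tested genes were negative, 47.6% were positive and the median was -0.01. That direction changed when a single library was left out, and also with the method. Without glo2+/+ replicate 2, which had the highest CPM of all 12 libraries for 7 of the 8, only 2 of 8 were negative and the median was 0.13. That rank depended on the scaling. In TPM, glo2-/- replicate 6 exceeded glo2+/+ replicate 2 and was highest for alas2 (20.1 against 16.6), SLC4A1 (ENSDARG00000012881; 3.61 against 2.72) and cahz (7.72 against 6.39). With limma-voom 4 of 8 were negative, where 51.0% of all tested genes were. With limma on the deposited TPM 4 of 8 were negative too. There 37.6% of all tested genes were negative on log2(TPM + 1) and 37.0% on log2(TPM + 0.1).

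The alpha globins came first in the comparison. hbaa1 had a lowest level of 60.3, a median of 89.6 and a highest level of 192 CPM in glo2+/+ liver, and 32.6, 99.5 and 194 CPM in glo2-/- liver. Its extremes were both glo2-/- libraries, replicate 5 at the bottom and replicate 1 at the top. The log2 fold change was -0.09 (95% interval -0.92 to 0.73, edgeR adjusted p = 0.977), from means of 112 ± 58.2 and 105 ± 51.7 CPM (SD, n = 6 each). hbaa2 ranged from 2.09 over a median of 5.1 to 18.01 CPM in glo2+/+ and from 3.29 over 5.67 to 9.93 CPM in glo2-/- liver. All 6 glo2-/- values lay inside the glo2+/+ range. Its log2 fold change was -0.19 (SE 0.49, 95% interval -1.23 to 0.86, edgeR adjusted p = 0.963), and it was 0.35 without glo2+/+ replicate 2.

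The 3 tested beta globin identifiers differed in level but had the same library, glo2+/+ replicate 2, at the top. The main one, HBE1 (ENSDARG00000089087), had 74.9, 151 and 483 CPM as its lowest, median and highest level in glo2+/+ liver, and 78.4, 126 and 242 CPM in glo2-/- liver. Its lowest library was also wild type, glo2+/+ replicate 1. The log2 fold change was -0.44 (SE 0.46, 95% interval -1.42 to 0.54, edgeR adjusted p = 0.895), and 0.02 without glo2+/+ replicate 2. For HBE1 (ENSDARG00000097238) the corresponding levels were 26.0, 61.6 and 198 CPM in glo2+/+ and 10.7, 40.6 and 110 CPM in glo2-/- liver. Its lowest values were in glo2-/- replicates 2 and 1, and the span from lowest to highest library was 18.6-fold, the widest among the 8. The log2 fold change was -0.54 (SE 0.61, 95% interval -1.85 to 0.78, edgeR adjusted p = 0.904), and -0.02 without glo2+/+ replicate 2. HBE1 (ENSDARG00000069734) ran from 4.49 over a median of 15.6 to 49.4 CPM in glo2+/+ and from 8.68 over 13.3 to 24.3 CPM in glo2-/- liver, again with all glo2-/- values inside the glo2+/+ range. Its log2 fold change was -0.39 (SE 0.49, 95% interval -1.45 to 0.68, edgeR adjusted p = 0.915), and 0.14 without the same library.

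**Figure D1:**
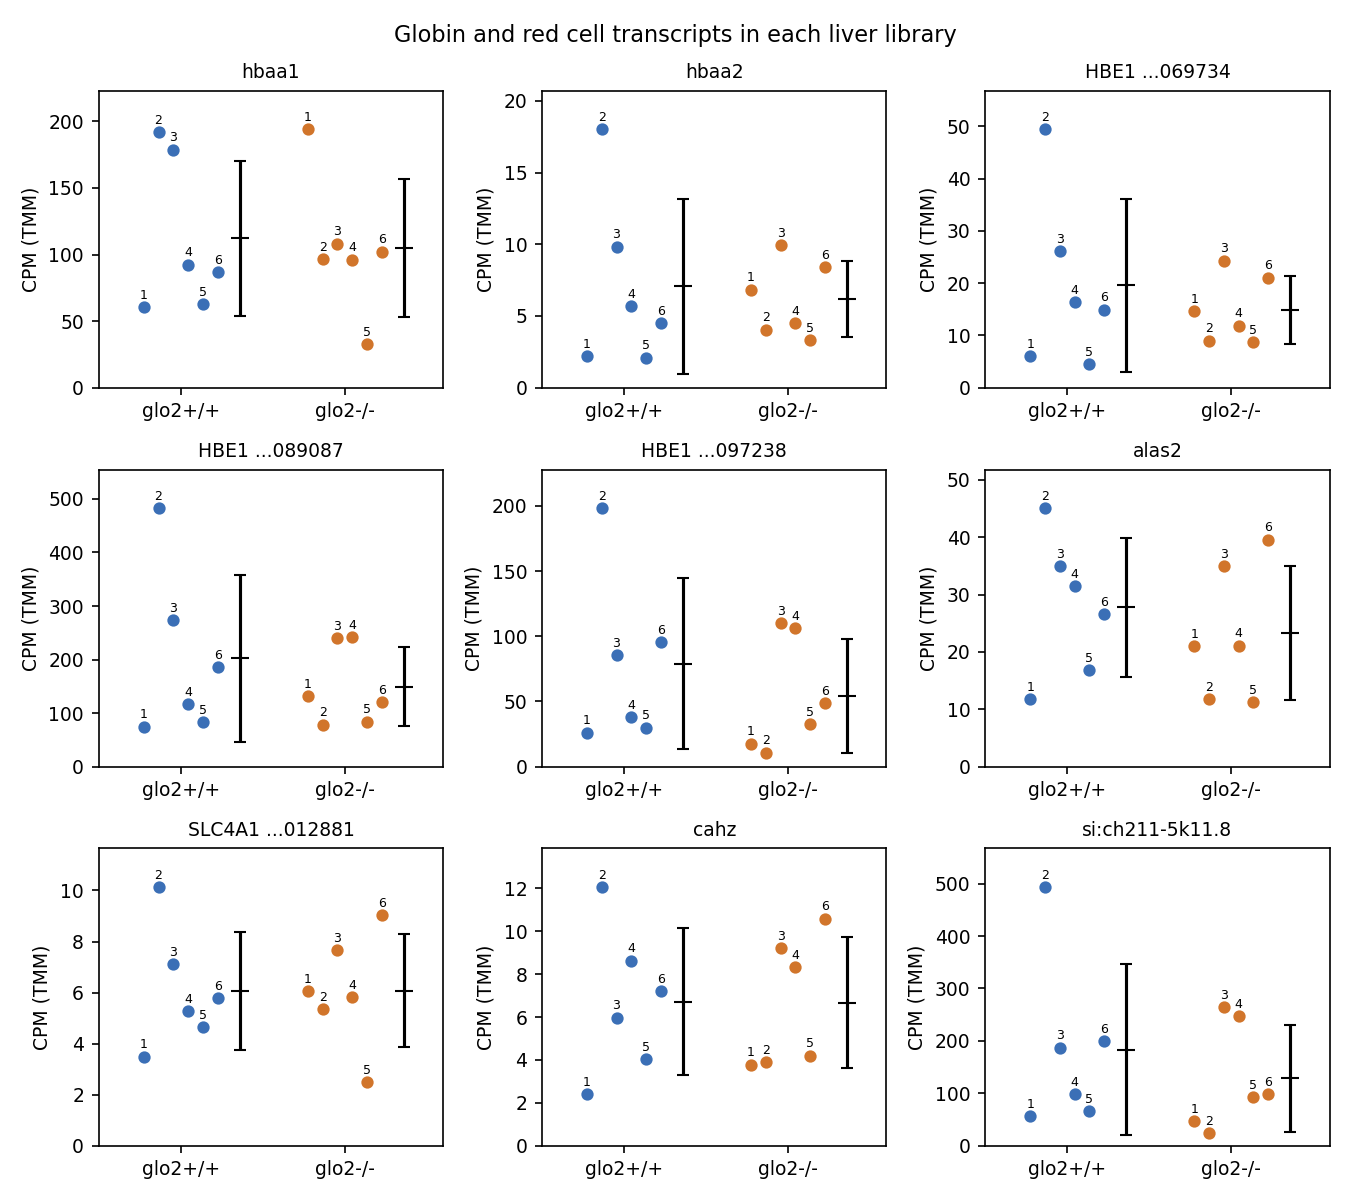
Level of each tested globin and red cell transcript, and of the alpha copy si:ch211-5k11.8, in CPM with TMM factors; points are libraries numbered by replicate, bars the mean ± SD of 6 libraries per genotype. glo2+/+ replicate 2 is the highest point in every panel except that of hbaa1, and the genotypes overlap in all panels.

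alas2, the haem synthesis gene of the red cell, ran from 11.7 over a median of 29.0 to 45.04 CPM in glo2+/+ liver and from 11.2 over 21.1 to 39.6 CPM in glo2-/- liver. The low libraries were glo2-/- replicates 5 and 2 and glo2+/+ replicate 1, so both genotypes reached the bottom of the range. The log2 fold change was -0.25 (SE 0.36, 95% interval -1.03 to 0.53, edgeR adjusted p = 0.922), and -0.06 without glo2+/+ replicate 2. SLC4A1 (ENSDARG00000012881), the band 3 transcript, had 3.48, 5.53 and 10.13 CPM as its lowest, median and highest level in glo2+/+ and 2.495, 5.94 and 9.04 CPM in glo2-/- liver. Its means were equal to 3 digits, 6.07 ± 2.32 and 6.07 ± 2.22 CPM (SD, n = 6 each), and the fitted fold change was 1.00 with a 95% interval of 0.645 to 1.56 (edgeR adjusted p = 0.999). cahz lay between 2.42 and 12.05 CPM in glo2+/+ (median 6.60) and between 3.77 and 10.6 CPM in glo2-/- liver (median 6.26). Its fold change was 0.993 (95% interval 0.568 to 1.74, edgeR adjusted p = 0.996).

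**Figure D2:**
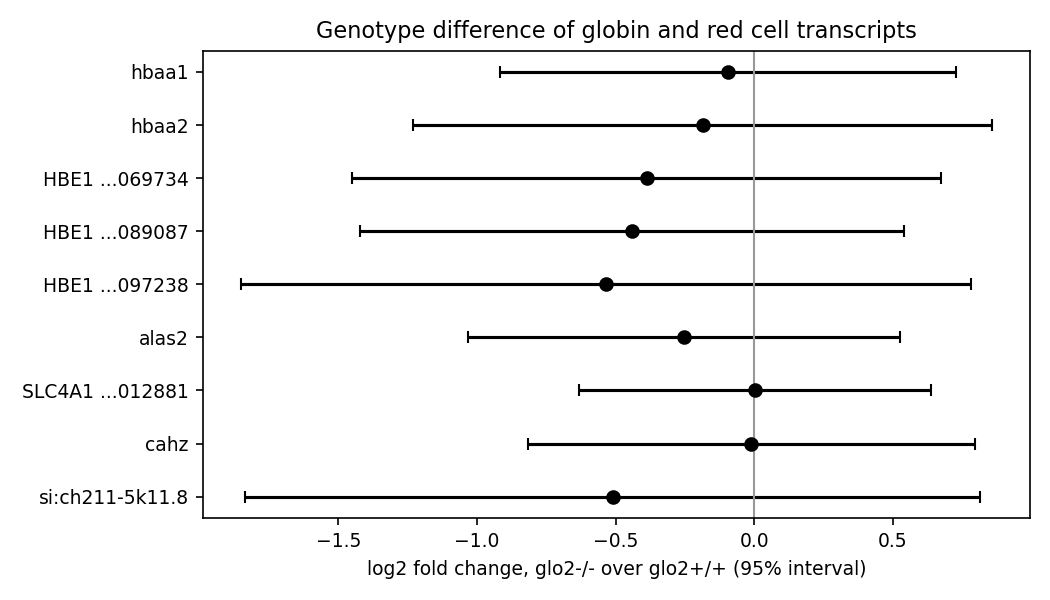
Fitted log2 fold change, glo2-/- over glo2+/+, of the 8 tested identifiers and si:ch211-5k11.8; points are edgeR estimates from 12 libraries and bars their 95% intervals. Every interval spans 0, and the estimates lie between -0.54 and 0.00.

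The balance of alpha to beta copies was then taken within each library, where library scaling cancels. With hbaa1 and hbaa2 as alpha and the 7 HBE1 identifiers as beta, the TPM ratio had a lowest value of 0.293, a median of 0.528 and a highest value of 0.591 in glo2+/+ liver. In glo2-/- liver these were 0.282, 0.458 and 1.26. The only ratios above 1 belonged to glo2-/- replicates 1 and 2 (1.26 and 1.05). The means were 0.472 ± 0.137 and 0.634 ± 0.427 (SD, n = 6 each), and the log2 ratio was higher by 0.21 in glo2-/- liver. An exact two-sided permutation test over all assignments of 6 and 6 libraries gave p = 0.563 (0.563 after adjustment over the 8 globin quantities tested; the smallest p possible was 0.00216). The direction turned without glo2-/- replicate 1, to a log2 difference of -0.04.

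Adding si:ch211-5k11.8 to the alpha side, a choice made after the values were seen, brought the ratio close to 1 in most libraries. It then ran from 0.959 over a median of 1.05 to 1.16 in glo2+/+ liver and from 0.957 over 1.06 to 1.55 in glo2-/- liver. The means were 1.05 ± 0.0899 and 1.16 ± 0.227 (SD, n = 6 each; log2 difference 0.13, exact permutation p = 0.327, adjusted 0.563). The highest values were again in glo2-/- replicates 1 and 2, at 1.55 and 1.3.

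The ratio of hbaa1 to si:ch211-5k11.8 lay in 3 separate ranges. In glo2-/- replicates 1 and 2 the TPM of hbaa1 was 4.20 and 4.09 times that of si:ch211-5k11.8. In glo2+/+ replicates 1, 3, 4 and 5 and glo2-/- replicate 6 the ratio was 0.947 to 1.07. In glo2+/+ replicates 2 and 6 and glo2-/- replicates 3, 4 and 5 it was 0.357 to 0.440. No library lay between these ranges. Both genotypes were found in the second and the third of them, while the first held glo2-/- libraries alone. The mean log2 ratio was higher by 0.45 in glo2-/- liver (exact permutation p = 0.515, adjusted 0.563). That test compares means, and how the genotypes fall into the ranges was not tested. As a share of the 3 alpha copies, si:ch211-5k11.8 made up 18.6% and 18.8% in the first set, 46.4% to 49.7% in the second and 68.1% to 71.3% in the third. hbaa2 stayed a minor copy throughout: hbaa1 made up 88.9% to 96.0% of hbaa1 and hbaa2 together, with means of 93.6% ± 2.32 for wild-type and 92.5% ± 2.99 for mutant liver (SD, n = 6 each; exact permutation p = 0.470).

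The same 2 libraries stood apart on the beta side. HBE1 (ENSDARG00000097238) made up 11.9% of beta TPM in both glo2-/- replicates 1 and 2, and 24.04% to 34.6% in the other 10 libraries. HBE1 (ENSDARG00000089087) made up 78.8% and 78.5% there and 60.4% to 68.9% elsewhere. HBE1 (ENSDARG00000069734) did not separate them, with 9.13% and 9.33% against 3.30% to 11.13% elsewhere. No genotype difference in a beta share passed 0.05: 27.7% ± 3.94 against 23.9% ± 9.41 (exact permutation p = 0.390), 66.0% ± 3.30 against 68.3% ± 8.17 (p = 0.509) and 6.3% ± 2.00 against 7.72% ± 2.75 (p = 0.333), glo2+/+ first (SD, n = 6 each). The mean log2 CPM of pancreas markers was 7.84 in glo2-/- replicate 1 and 0.61 in replicate 2, near both ends of its range of -0.17 to 7.84. The counts of hbaa1, HBE1 (ENSDARG00000089087), HBE1 (ENSDARG00000097238) and si:ch211-5k11.8 were not whole in 11 or 12 of 12 libraries, as arises where kallisto divides reads that match several transcripts. The part of that division in these ranges was not tested.

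**Figure D3:**
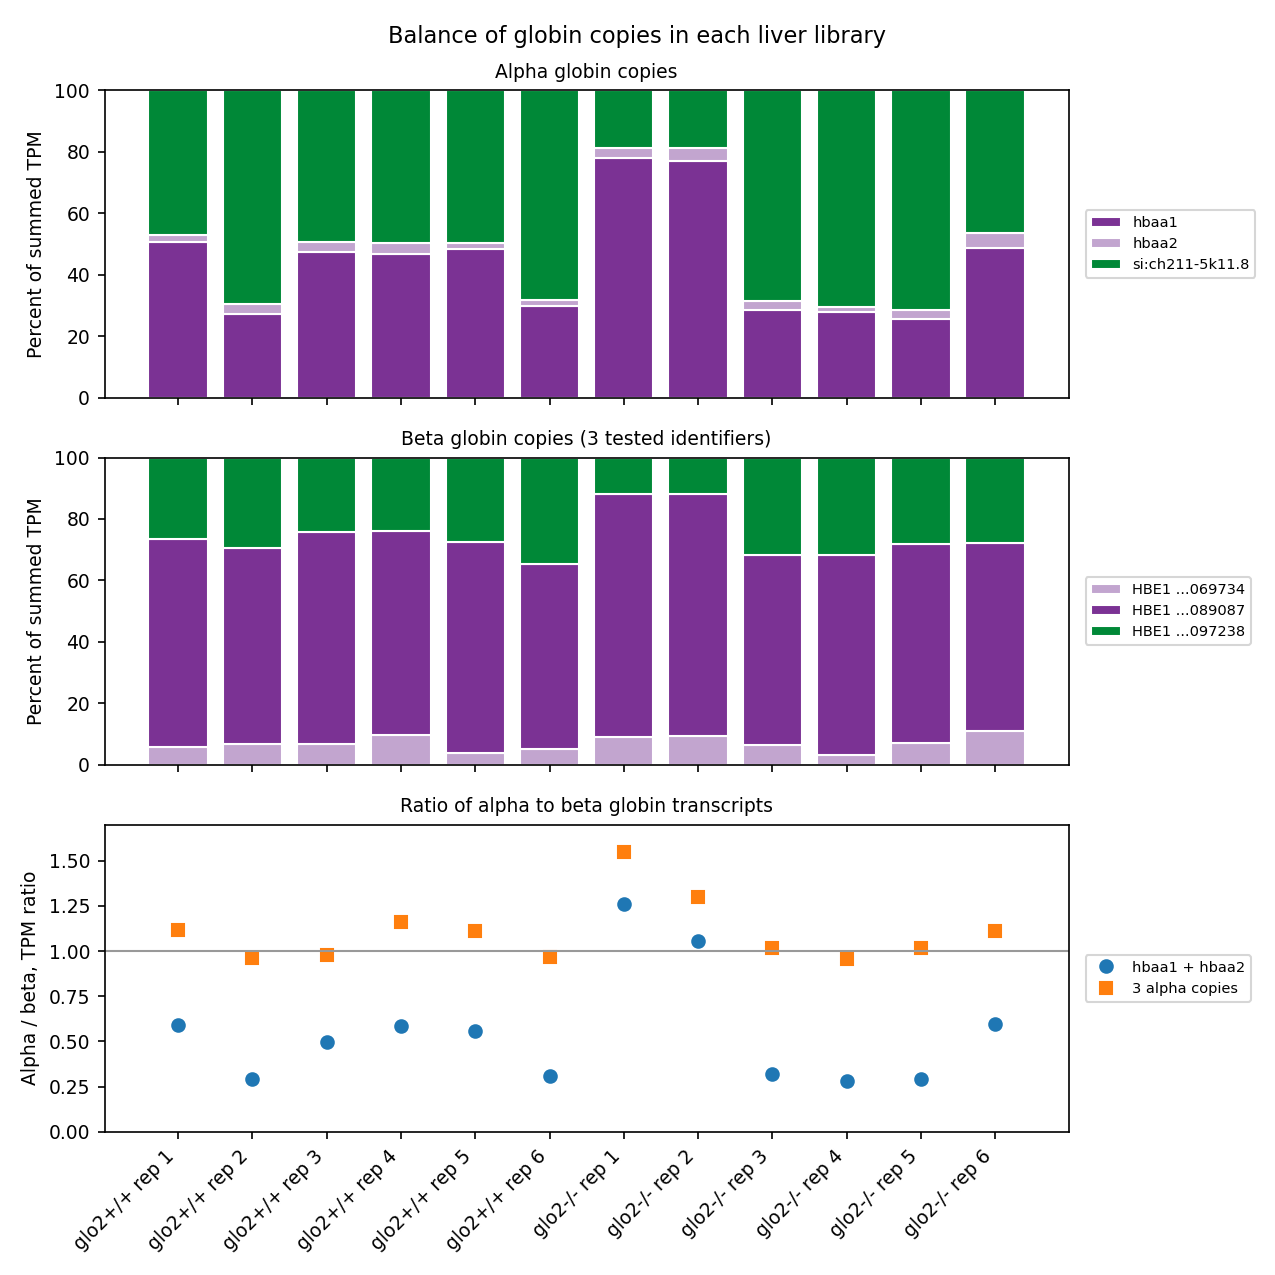
Upper panels: percent of summed TPM from each alpha copy and from each tested beta identifier, stacked per library; lower panel: ratio of alpha to beta TPM per library, with and without si:ch211-5k11.8, and a line at 1. The alpha shares form 3 sets of libraries, and glo2-/- replicates 1 and 2 have the smallest shares of si:ch211-5k11.8 (18.6% and 18.8%) and of HBE1 ENSDARG00000097238 (11.9%).

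Across livers the globin and red cell transcripts varied together. The 8 identifiers and si:ch211-5k11.8 form 36 pairs. All 36 had a positive Pearson r over 12 libraries. The pairs of hbaa1 with HBE1 (ENSDARG00000097238) and with si:ch211-5k11.8 are given apart, a choice made after the values were seen. The libraries lie in separate ranges of the ratio of hbaa1 to si:ch211-5k11.8. Every pair uses the same 12 libraries, so the other pairs pool these ranges too. Each range holds fewer than 6 libraries. Both genotypes hold libraries from different ranges, so values within a genotype mix the ranges too. The other 34 had a positive Pearson r of log2 CPM over 12 libraries, from 0.41 to 0.99, and were positive within both genotypes. Within genotypes their lowest r was 0.73 in glo2+/+ and 0.11 in glo2-/- liver, both for hbaa1 with cahz. Over 12 libraries the 2 pairs set aside had the lowest r, 0.32 and 0.31. They were also the only pairs negative within a genotype, glo2-/-. In permutation tests with Benjamini-Hochberg adjustment over all 36 pairs, 31 passed 0.05 by Pearson r and 32 by Spearman rho. Without the 2 libraries farthest from the median, 22 passed by Pearson r. Neither of the pairs set aside passed in any of these. With log2(TPM + 1) in place of log2 CPM, 26 of the 36 passed by Pearson r. All pairs share the depth and scaling of each library. alas2 and SLC4A1 (ENSDARG00000012881), whose counts were whole in every library, had r = 0.87 and rho = 0.89 (permutation p = 4e-05, adjusted 0.00048; rho p = 0.00027, adjusted 0.00162). Without the 2 farthest libraries r was 0.79, and it was 0.93 within glo2+/+ and 0.85 within glo2-/- liver. alas2 and cahz had r = 0.87 and rho = 0.86 (permutation p = 0.00044, adjusted 0.00188; rho p = 0.00073, adjusted 0.00316), and r = 0.83 without the 2 farthest. alas2 also followed HBE1 (ENSDARG00000069734), with r = 0.87 and rho = 0.92 (permutation p = 0.00014, adjusted 0.00084; rho p = 6e-05, adjusted 0.00072), and r = 0.94 without the 2 farthest.

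The tightest pairs each joined an alpha with a beta globin. HBE1 (ENSDARG00000097238) and si:ch211-5k11.8 had r = 0.99 and rho = 0.99, and the minor copies hbaa2 and HBE1 (ENSDARG00000069734) had r = 0.98 and rho = 0.97. Both reached the smallest p that 100000 permutations give, 1e-05 (adjusted 0.00018), and both held without the 2 farthest libraries (r = 0.99 and 0.97). hbaa1 with HBE1 (ENSDARG00000097238) had an r of 0.85 within glo2+/+ and -0.09 within glo2-/- liver, and with si:ch211-5k11.8 the values were 0.87 and -0.13. The glo2-/- libraries behind these values came from every range of the copy ratio, with replicates 1 and 2 at 4.20 and 4.09. The glo2+/+ libraries came from the lower ranges only. The difference between the genotypes was not tested. Among the 34 pairs not set aside, hbaa1 with cahz (r = 0.41) did not pass by Pearson r. SLC4A1 (ENSDARG00000012881) with HBE1 (ENSDARG00000097238) (r = 0.54) or si:ch211-5k11.8 (r = 0.50) did not pass either.

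**Figure D4:**
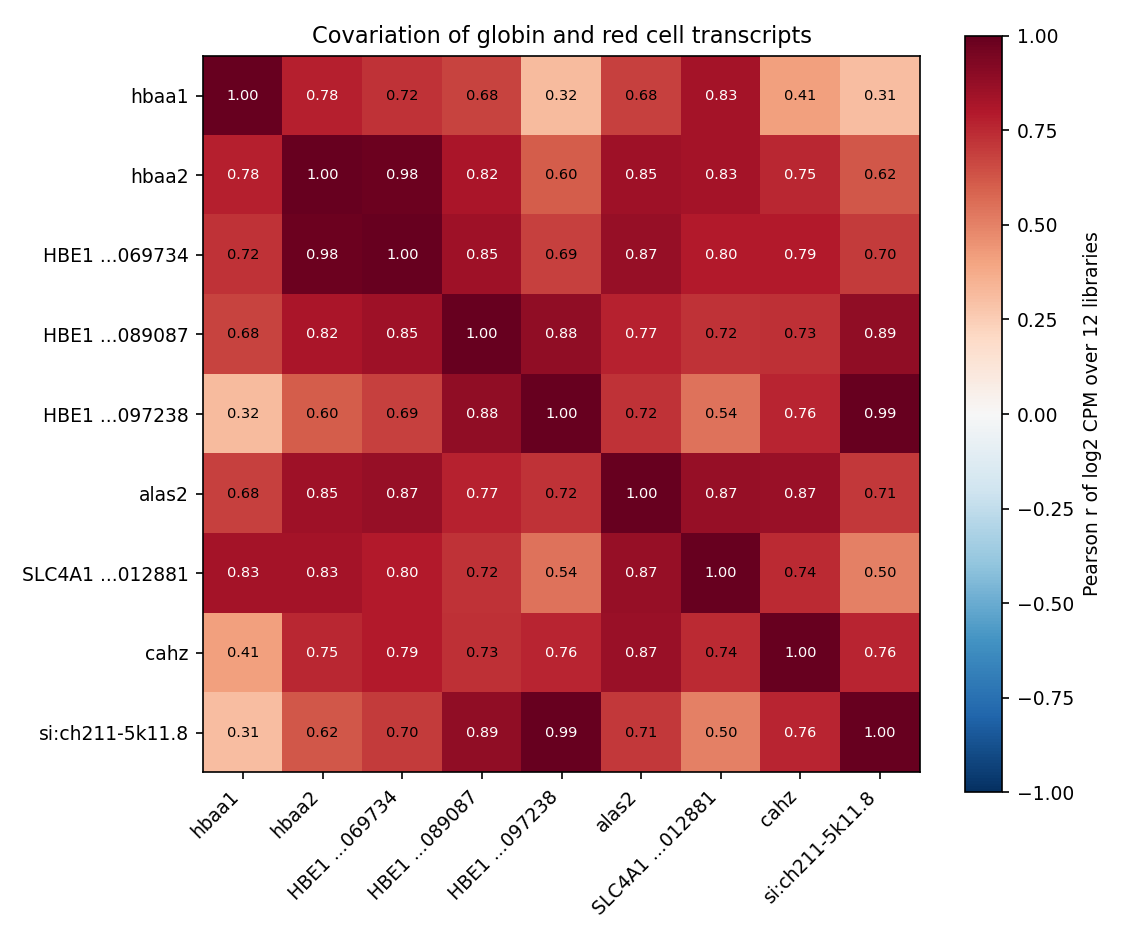
Pearson r of log2 CPM over 12 libraries for each pair of the 8 tested identifiers and si:ch211-5k11.8; red is positive and blue negative. All pairs are positive. The lowest, 0.32 and 0.31, are hbaa1 with HBE1 ENSDARG00000097238 and with si:ch211-5k11.8. Every pair pools the same 12 libraries, which lie in separate ranges of the ratio of hbaa1 to si:ch211-5k11.8. The other pairs run from 0.41 to 0.99.

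The mean log2 CPM of hbaa1, hbaa2 and the 3 tested HBE1 identifiers, here the globin mean, was next used to rank the other genes. This is a description without a test. The globin mean gives these copies equal weight and leaves out si:ch211-5k11.8. Only CPM with TMM scaling was used for the ranking. Among 11118 genes of sufficient abundance, si:ch211-103n10.5 (ENSDARG00000077504) was most like the globin mean, with r = 0.96 over 12 libraries. epb41b, a protein 4.1 of the membrane skeleton, had r = 0.91. SPTB, the beta spectrin of the red cell skeleton, had r = 0.88. Also among the first 10 were CREG1 (0.90), hif1al2 (0.87), GP1BB (0.85), a subunit of the thrombocyte receptor for von Willebrand factor, ENSDARG00000098660 (0.84), LMO2 (0.84), a cofactor of blood transcription factors, and CNN3 (0.84), a calponin. At the other end stood arap3 (-0.90), SNAP29 (-0.89), ENSDARG00000104277 (-0.88), spint2 (-0.87) and wu:fc21g02 (-0.86). Over all tested genes 49.0% had a positive r, with a median of -0.01. Among the 10, epb41b lay between 2.1 and 10.2 CPM (log2 fold change -0.37, SE 0.33) and SPTB between 1.07 and 5.22 CPM (-0.30, SE 0.35), and none of the 10 passed the edgeR threshold.

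Genes of the red cell membrane were split in their likeness to the globins. Of 16 tested, 9 had a positive r (median 0.15). Besides epb41b and SPTB these included the actin-bundling DMTN (0.83), the blood group protein gene kel (0.76), the ankyrin ANK1 (0.75), the adducin add2 (0.65) and the ammonium transporter RHAG (0.48). The mechanically gated channel PIEZO1 (-0.64), stom (-0.57) and GYPC (-0.28) were among the negative ones. The erythroid transcription and signalling list was split likewise, with 7 of 16 positive and a median of -0.01. Here LMO2 (0.84), TAL1 (0.81), the erythroid master factors klf1 (0.73) and gata1a (0.69) and the kinase jak2a (0.65) were at the top, and KLF3 (-0.76) at the bottom. Red cell enzymes and cytosolic proteins leaned positive by gene, with 8 of 11 (median 0.20) and the nucleotidase NT5C3A highest at 0.78. Iron supply had 6 of 7 positive (median 0.27). The mean log2 CPM of the iron supply list had r = 0.29, but -0.17 without the 2 libraries farthest from the median of the globin mean. For the enzyme list both values were 0.40. The enzyme list held genes above every globin copy in median level, among them PKLR (1304 TPM, r = 0.18), CAT (1005 TPM, -0.03) and gpx1a (443 TPM, 0.57). Hepatocyte markers leaned positive too, with 16 of 18 (median 0.35).

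Haem synthesis other than alas2 did not follow the globins. Of 18 genes tested, 8 had a positive r and the median was -0.03, near the median of all genes. ALAS1 (-0.04), UROD (-0.03), CPOX (0.00) and FECH (0.08), the last of which inserts iron into the haem ring, were all close to 0. The mitochondrial TMEM14C was highest at 0.57, and SLC25A38 (ENSDARG00000059805) was lowest at -0.52. The mean log2 CPM of the list had r = -0.28, and -0.50 without the 2 libraries farthest from the median of the globin mean. ALAS1 outnumbered alas2 per length, with 48.8 to 191 TPM against 5.20 to 20.1 TPM. Haem breakdown and scavenging genes were positive in 5 of 12 (median -0.10). Of the other globins, hbae4 had r = 0.82.

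Other cell types were compared in the same way. All 8 tested genes of the thrombocyte list had a positive r (median 0.28), led by GP1BB (0.85) and gp9 (0.84). The others were sele (0.53), itga2b (0.39), the THBS1 copies (0.18 and 0.07), f13a1b (0.17) and NFE2L1 (0.15). Of 18 hepatocyte markers 16 were positive (median 0.35), and of 17 pancreas markers all 17 were, though weakly (median 0.17). Macrophage markers were positive in 2 of 13 (median -0.22) and endothelial markers in 2 of 9 (median -0.25). Neutrophil markers were positive in 2 of 3 (median 0.19) and lymphocyte markers in 1 of 4 (median -0.20). The r of each list's mean log2 CPM changed without the 2 libraries farthest from the median of the globin mean. It went from 0.67 to 0.41 for thrombocyte, 0.41 to 0.28 for hepatocyte and 0.18 to 0.04 for pancreas markers. For neutrophil markers it went from 0.07 to -0.44, and for lymphocyte markers from -0.20 to -0.04. Macrophage markers went from -0.25 to -0.31 and endothelial markers from -0.17 to -0.51. The part of these cells in the spread of the globins was not tested.

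**Figure D5:**
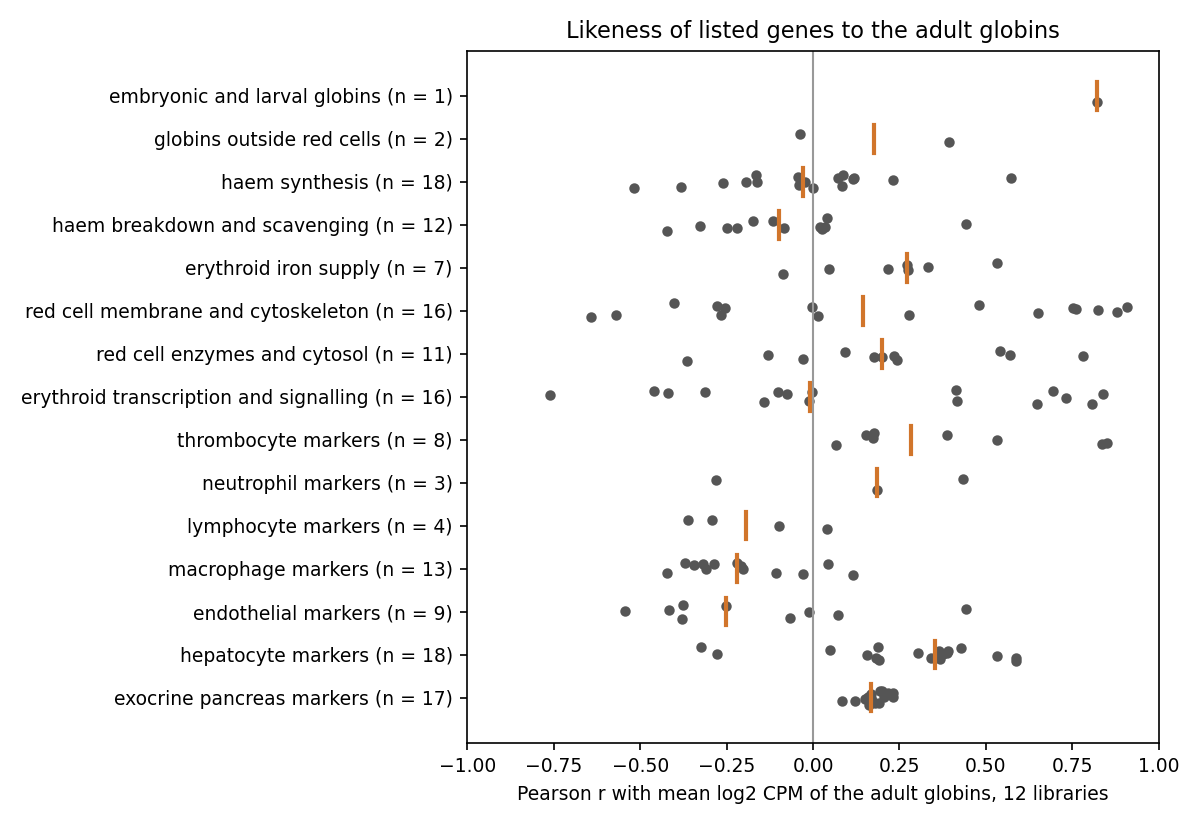
Pearson r, over 12 libraries, between each tested gene's log2 CPM and the globin mean, by gene list. The globin mean is the mean log2 CPM of hbaa1, hbaa2 and the 3 tested HBE1 identifiers. Points are genes and orange marks list medians. Red cell membrane and erythroid transcription genes spread from below -0.6 to above 0.8, while most haem synthesis genes lie near 0.

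The related pathways gave no call between the genotypes. Haem synthesis genes had a positive fold change in 10 of 18 and a negative one in 8, with a median log2 fold change of 0.02. The largest entries by rank of p were ABCB6 (log2 fold change -0.61, SE 0.27), UROD (-0.46, SE 0.22), CLPX (-0.29, SE 0.15), PPOX (-0.42, SE 0.23) and SLC25A38 (0.42, SE 0.25), all with an edgeR adjusted p of 0.819 or more. ALAS1, the most abundant, had 187 ± 61.6 CPM in wild-type and 191 ± 63.2 CPM in mutant liver (SD, n = 6 each; log2 fold change 0.03, SE 0.27).

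Haem breakdown and scavenging was balanced at 6 positive and 6 negative of 12. HMOX1, the haem oxygenase that opens the ring, had 109 ± 63.3 CPM in wild-type and 48.3 ± 31.98 CPM in mutant liver (SD, n = 6 each). Its log2 fold change of -1.18 (SE 0.56, edgeR adjusted p = 0.819) did not pass. The haem transporter FLVCR1 (0.70, SE 0.48) and the tested copies of its relative FLVCR2 did not either. The more abundant FLVCR2 copy, ENSDARG00000031506 (median 17.9 TPM), was at 0.11 (SE 0.13). FLVCR2 (ENSDARG00000038957; median 1.48 TPM, with counts in only 10 libraries) was at -1.27 (SE 0.85). The haemopexins hpxb (-0.24, SE 0.18) and hpxa (0.07, SE 0.23), which bind free haem in plasma, did not pass. The iron exporter SLC40A1 (0.50, SE 0.52) did not pass. Among 7 genes of iron supply 5 were positive. The transferrin receptor tfr1b had 78.3 ± 50.8 CPM in glo2+/+ and 154 ± 26.5 CPM in mutant liver (SD, n = 6 each; log2 fold change 0.97, SE 0.39, edgeR adjusted p = 0.819). The transcripts of slc11a2 (-0.21, SE 0.15), IREB2 (0.16, SE 0.18), GLRX5 (0.12, SE 0.17) and SLC25A28 (0.05, SE 0.20) lay closer to 0.

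Red cell membrane genes stood at 9 positive and 7 negative, with a median of 0.00 and none of 16 under an unadjusted p of 0.05. TMOD1 (0.50, SE 0.27), SLC2A1 (0.43, SE 0.30), TMOD4 (0.43, SE 0.44), DMTN (-0.33, SE 0.38) and MPP1 (0.08, SE 0.20) were the named ones beside epb41b. Of 11 red cell enzymes and cytosolic proteins 5 were positive, and 3 had an unadjusted p under 0.05 (fth1a, HAGH and CAT), against 5.88% of all tested genes. Haem synthesis (ABCB6), iron supply (tfr1b) and erythroid transcription and signalling (BCL11A) had 1 such gene each. HAGH is counted here although it is the gene targeted by the knockout. CAT (median 1005 TPM) and fth1a (574 TPM) stood above the leading globin copy (296 TPM) per length. Which cells their RNA came from was not tested. The ferritin gene fth1a had 400 ± 67.7 CPM in wild-type and 570 ± 131 CPM in mutant liver (SD, n = 6 each; log2 fold change 0.51, SE 0.17, edgeR adjusted p = 0.819). Catalase CAT (-0.32, SE 0.14), pyruvate kinase PKLR (-0.58, SE 0.30), BPGM (-0.40, SE 0.22) and hemgn (0.18, SE 0.17) did not pass. In erythroid transcription and signalling 11 of 16 were negative (median -0.12), among them KLF6 (-0.39, SE 0.20), stat5a (-0.33, SE 0.22) and klf1 (-0.29, SE 0.31), while BCL11A (0.96, SE 0.42), TRIM33 (0.25, SE 0.13) and jak2a (0.08, SE 0.20) were positive.

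Markers of other cells are given beside these counts. All 13 macrophage markers were negative in glo2-/- liver (median log2 fold change -0.43), and 3 of them had an unadjusted p under 0.05, where 3.41% of all tested genes were lower at that p. Their summed level was 136 to 280 TPM in glo2+/+ and 69.5 to 232 TPM in glo2-/- liver. Tested genes of the thrombocyte list were negative in 6 of 8 (median -0.25), and the list summed to 9.86 to 16.4 TPM in glo2+/+ and 9.996 to 14.9 TPM in glo2-/-. Neutrophil markers were negative in 3 of 3 (9.60 to 28.1 TPM and 9.35 to 14.1 TPM), with 1 under an unadjusted p of 0.05 (MMP9, log2 fold change -2.02, SE 0.67), and lymphocyte markers in 1 of 4 (2.63 to 9.78 TPM and 3.39 to 12.5 TPM). Endothelial markers were negative in 7 of 9 and hepatocyte markers in 15 of 18 (medians -0.08 and -0.13), with endothelial sums of 21.9 to 36.1 TPM and 22.3 to 38.7 TPM. All 17 pancreas markers were positive (median 1.03), although their mean log2 CPM was 3.91 in both genotypes (SD 2.38 in glo2+/+ and 2.93 in glo2-/-, n = 6 each). Of the markers, 1 copy of MPEG1 (ENSDARG00000078569), 1 copy of SYCN (ENSDARG00000090899) and cd79b were at 0 in all libraries, while other MPEG1 and SYCN copies were tested. None of the tested ones passed the edgeR threshold, and the part of these cells in the globin comparison was not tested. Without the 3 libraries highest in pancreas markers, 6 of 8 globin and red cell identifiers were negative, with a median of -0.13.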

How the data were processed

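Whole liver RNA was sequenced in 12 libraries after TRIzol extraction and BGISeq-500 library preparation, per the labels' protocols. The authors deposited estimated counts per gene and TPM for each library. Per the submitters' processing notes, Trim Galore 0.6.4, kallisto 0.4.6 and build GRCz11 were used. The step from transcripts to genes and the annotation version are not stated in the sources used here. Of the deposited estimated counts, 19.1% were not whole (tolerance 0.001), as kallisto divides reads that match several transcripts, and values of near-identical globin copies are uncertain.

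Names were looked up by identifier (29201 of 32520 had a name). Of 230 entries of the members and 15 gene lists, 22 matched no identifier. RefSeq assembly GRCz12tu served for synonyms and gene order only. The members and lists were chosen with earlier results of these data known.

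The edgeR 4.0.16 quasi-likelihood test (R 4.3.3; filterByExpr, TMM, glmQLFit, glmQLFTest, genotype only) was run on rounded estimated counts, with Benjamini-Hochberg adjustment over 14509 genes and a threshold of 0.05. The F statistic gave standard errors and 95% intervals. A prior count of 2 was used for log2 CPM. Exact permutation tests, two-sided, compared globin ratios and shares from TPM, and correlations were tested by 100000 permutations (scipy 1.17.1). Named genes were the members, up to 6 per red cell or haem list by smallest p then abundance, the 10 most and 5 least like the globin mean among genes averaging 1 or more in log2 CPM, and the targeted gene. Of these, 2 genes are not reported here. Genes named for their r within a list were chosen after their values were seen.

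The plan had used hbba1 and hbba2 singly. Since they could not be told apart, the 7 HBE1 identifiers were summed, the share of each of the 3 tested ones was compared, and pairs were taken over 9 identifiers including si:ch211-5k11.8, added after the values were seen. A ratio of hbaa1 to hbba1 alone was not run. Alternatives were DESeq2 1.42.0 and its size factors, TMM without globins, other count filters, limma 3.58.1 (voom with sample weights, and trend on log2(TPM + 1) or log2(TPM + 0.1)), a replicate block, leaving out each library, and leaving out the 3 libraries highest in pancreas markers, the last added after the data were seen. The edgeR script was tested on simulated data. Depth was 17433960 to 18465485 counts per library; hbaa2, for example, rested on 39 to 290 counts.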

Additional observations from a re-analysis of the deposited data

Results flagged for a closer look

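In 36 sets of 6 values (log2 CPM of the 8 tested identifiers and si:ch211-5k11.8, and the globin ratios, shares and sum, in each genotype), no library lay farther from its neighbour than Dixon's 95% critical value allows, where chance gives about 2 such sets. Because the gap is taken to the nearest library, 2 libraries standing apart together cannot be flagged. This applies to glo2-/- replicates 1 and 2, both at 11.9% in the share of HBE1 (ENSDARG00000097238).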

How the results depend on the processing

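No globin or red cell identifier was called under any of 22 alternatives. Counts of genes called over the whole table were 1 higher and 0 lower in glo2-/- liver with edgeR, 10 and 24 with DESeq2, and 1 to 2 and 0 to 1 with a library left out. Directions were less stable. With a library left out, the log2 fold change ran from -0.36 to 0.13 for hbaa1, -0.38 to 0.35 for hbaa2, -0.59 to 0.14 for HBE1 (ENSDARG00000069734), -0.63 to 0.024 for HBE1 (ENSDARG00000089087), -0.13 to 0.21 for SLC4A1 (ENSDARG00000012881), -0.18 to 0.24 for cahz and -0.85 to 0.083 for si:ch211-5k11.8. alas2 (-0.46 to -0.06 with a library left out) and HBE1 (ENSDARG00000097238; -0.87 to -0.02) stayed negative in all 22 alternatives, but came close to 0 without glo2+/+ replicate 2. The log2 difference of the summed globin level, -0.10, ran from -0.30 to 0.14 with a library left out. In limma-voom, limma on log2(TPM + 1) and limma on log2(TPM + 0.1), hbaa2 was at 0.35, 0.18 and 0.20, HBE1 (ENSDARG00000069734) at 0.21, 0.028 and 0.037, and cahz at 0.14, 0.088 and 0.12. Without the 3 libraries highest in pancreas markers cahz was at 0.29. The alpha to beta log2 ratio difference of 0.21 ran from -0.043 to 0.39 with a library left out and was -0.0055 without those 3 libraries, where the share of HBE1 (ENSDARG00000089087) differed by -0.55 percentage points instead of 2.33 (0.23 to 3.76 with a library left out). The cause of these changes was not tested. The median log2 fold change of all genes stayed between -0.02 and 0.07 in every setting.

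Replicate numbers showed no pairing in expression: deviations of same-numbered libraries correlated between -0.32 and 0.29, and only replicate 1 correlated best with its own number. Whether same-numbered libraries shared handling was not tested. With the replicate block 0 members were called, and hbaa2 was at 0.13, SLC4A1 (ENSDARG00000012881) at -0.014 and cahz at 0.047. The ratio of hbaa1 to hbba1 alone was not run. SLC4A1, cahz and hbaa2 rest on few counts, and the division of reads between near-identical copies limits every copy share.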

Other observations

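Globins that are not part of blood haemoglobin were measured as well. Cytoglobin, a haem protein of connective tissue cells, was represented by CYGB (ENSDARG00000099371), at 18.1 to 71.1 CPM over the 12 libraries. Its mean was 41.7 ± 17.0 CPM for wild-type and 56.8 ± 14.8 CPM for mutant liver (SD, n = 6 each), with a log2 fold change of 0.44 (SE 0.28, edgeR adjusted p = 0.833). Myoglobin, mb, the oxygen store of muscle, lay between 4.65 and 27.9 CPM, with a log2 fold change of 0.48 (SE 0.38, edgeR adjusted p = 0.864). NGB, neuroglobin, was at 0 in every library. The r with the adult globin mean over 12 libraries was 0.39 for mb and -0.04 for CYGB, and that of the larval hbae4 was 0.82.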
